A study of Mus musculus with 6 samples.

Results

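A set of 9 transcription regulators tied to T helper 2 (Th2) cells was examined, namely Gata3, Zfpm1, Stat6, Gfi1, Bhlhe40, Bhlhe41, Nfil3, Id2 and Runx3. They were taken by name, with 1 probe set per gene, and all 9 of 9 were measured among 22180 genes. The cells were CD4 T cells of the lung, sorted as CD45+ CD4+ cells negative for CD11b and F4/80. They came from wild-type mice given house dust mite (HDM), an allergen that provokes allergic airway inflammation, or PBS, the saline vehicle. Each group had 3 samples, titled as biological replicates and hybridised to 1 Affymetrix Mouse Gene 2.0 ST array each. Both groups were wild type, and their strain, age, dosing schedule and any pooling of mice are not given in the sources used here. The p-values therefore speak only of the spread among these 6 samples.

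Th2 cells make interleukins 4, 5 and 13 and drive allergic inflammation. Interleukin 4 activates STAT6 by phosphorylation, STAT6 induces Gata3, and GATA3, a zinc finger protein, opens and activates the Th2 cytokine locus. Cofactors, repressors and factors of rival lineages tune this circuit, and several of them, such as the helix-loop-helix repressors Bhlhe40 and Bhlhe41 and the basic leucine zipper protein Nfil3, also belong to the circadian clock.

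Gata3 and Bhlhe40 were the 2 regulators that rose in HDM, at 2.03-fold and 1.55-fold, and 0 fell, by limma with an adjusted p below 0.05 over all genes. Among all genes 2.39% were called higher and 1.56% lower by the same rule. The median log2 difference of the 9 was 0.47, beside −0.006 over all 22180 genes. The 3 HDM values lay above all 3 PBS values for 5 of the 9 (Gata3, Zfpm1, Bhlhe40, Nfil3 and Id2), as they did for 10.8% of all genes, and below them for 1 (Bhlhe41), as for 11.8% of all genes. With the replicate number as a block, Gata3, Bhlhe40, Id2, Zfpm1 and Gfi1 were called higher and Bhlhe41 lower, so 5 and 1 of the 9, while 5.95% and 6.01% of all genes were called. In the block fit over all 33960 probe sets, an alternative chosen after seeing the data, Zfpm1, Gfi1 and Bhlhe41 did not pass (limma adjusted p = 0.0771, 0.0738 and 0.0633), which left 3 and 0, where 3.42% and 3.02% of probe sets were called higher and lower. The count of raised regulators was 1 without PBS replicate 1, without PBS replicate 2 or without HDM replicate 1, where 0.866%, 0.798% and 0.911% of all genes were called higher. It was 4 without HDM replicate 3 and 4 without both arrays numbered 3, where 3.81% and 5.64% of all genes were called higher. At an adjusted p below 0.01 it was 1, beside 0.775% of all genes.

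**Figure D1:**
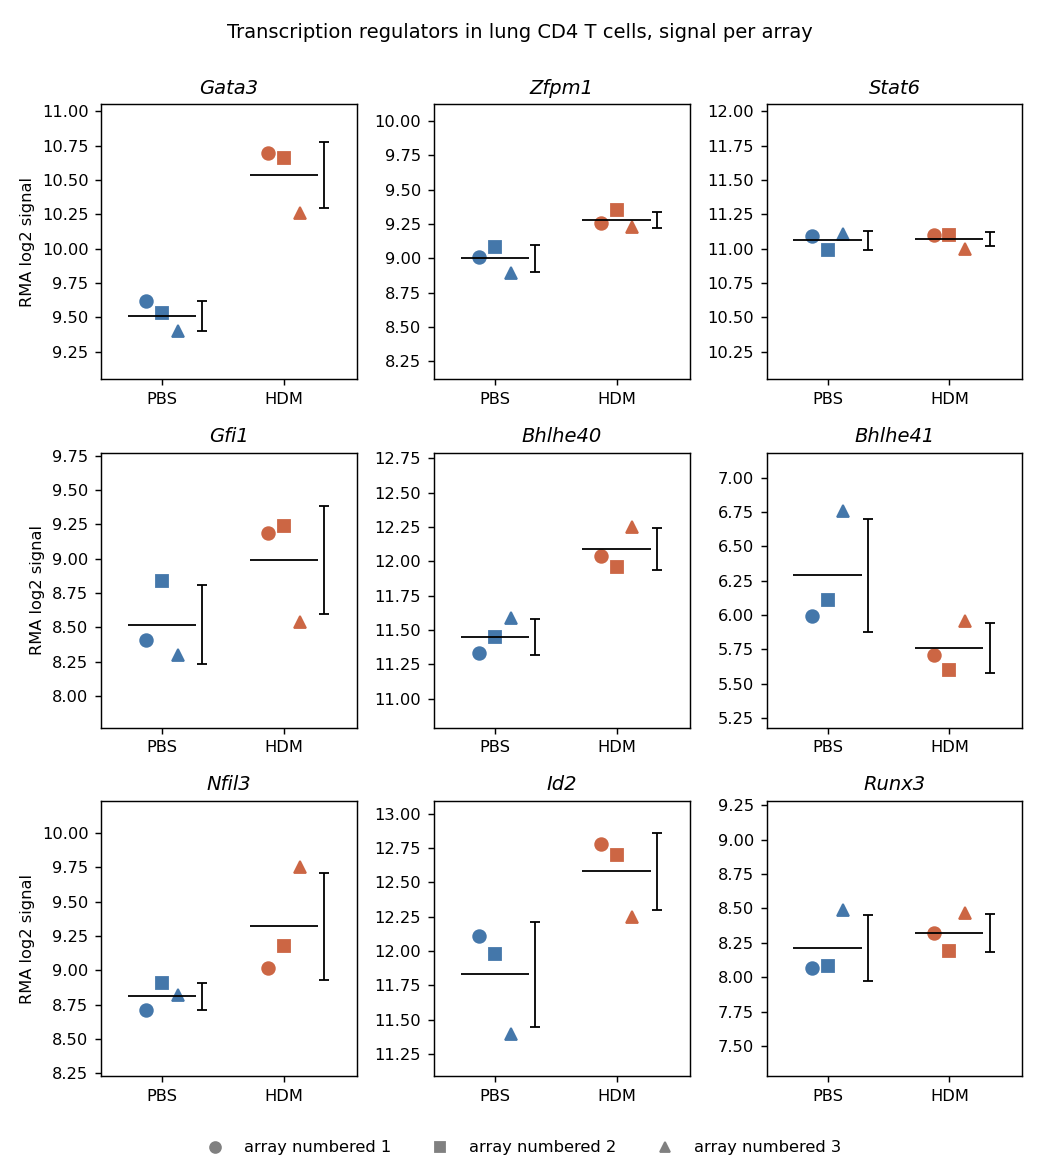
RMA log2 signal (vertical axis, each panel spanning 2 log2 units) of the 9 regulators in the 3 PBS and 3 HDM arrays, with marker shapes for the replicate numbers, a line at each group mean and bars of 1 SD. HDM arrays lie above all PBS arrays for Gata3, Zfpm1, Bhlhe40, Nfil3 and Id2 and below them for Bhlhe41.

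Gata3, the lineage-defining factor of Th2 cells, had log2 signals of 9.62, 9.53 and 9.40 in PBS replicates 1, 2 and 3 and of 10.70, 10.66 and 10.26 in the HDM replicates. Every HDM array was higher than every PBS array, and the nearest values of the groups were 0.64 apart. The difference was 1.02 ± 0.13 SE on the log2 scale (95% interval 0.72 to 1.33, limma adjusted p = 0.00722), and 0.861% of all genes had a larger positive difference. The difference was 1.08, 1.13 and 0.86 between the arrays numbered 1, 2 and 3. In bulk RNA, a larger share of cells that express a gene and more RNA per cell cannot be told apart. The call held when any 1 array was left out, with limma adjusted p from 0.00109 to 0.0488.

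A second probe set carried the Gata3 symbol, and the choice of the brighter one set the size of the difference. The dimmer one gave 7.15, 7.03 and 7.42 in PBS and 7.56, 7.53 and 7.46 in HDM. The HDM arrays were again all above the PBS arrays, but by as little as 0.04 between the arrays numbered 3. Its difference of 0.31 ± 0.12 did not pass (95% interval 0.03 to 0.59, limma adjusted p = 0.254 over 33960 probe sets), while the brighter one passed there too (adjusted p = 0.0151). The signal of the brighter minus that of the dimmer probe set was 2.46, 2.49 and 1.98 in PBS and 3.14, 3.13 and 2.80 in HDM, so the 2 changed by amounts that differed by 0.71. An exact permutation test of that difference, chosen after the values were seen, gave p = 0.1 (two-sided), the smallest that 3 against 3 arrays allow. The mean of both probe sets rose by 0.67 (limma adjusted p = 0.0154). Which part of the locus and which strand each probe set reads was not given in the sources used here. Whether the dimmer one measures Gata3 transcript is not known, and the mean of both has the same limit.

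**Figure D2:**
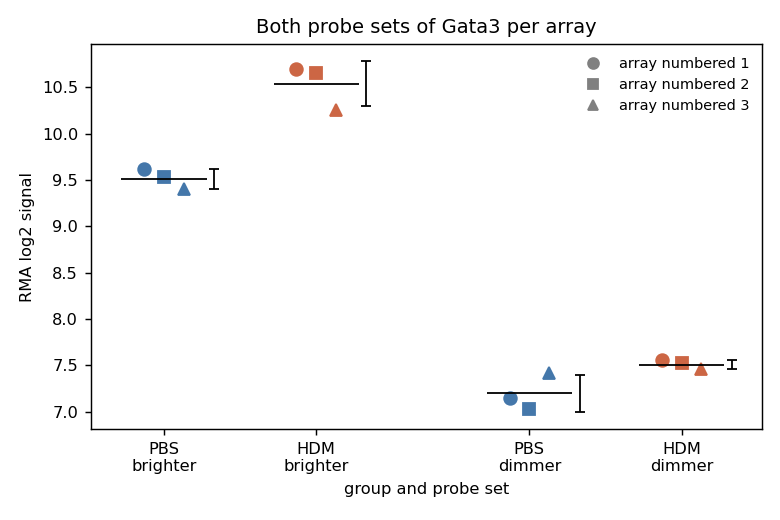
RMA log2 signal (vertical axis) of the brighter and the dimmer Gata3 probe set in the 3 PBS and 3 HDM arrays, with lines at group means and bars of 1 SD. The brighter one moves from a PBS mean of 9.51 to an HDM mean of 10.54, and the dimmer one from 7.20 to 7.51.

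The 250 bases before the 1 Gata3 start in the promoter table are shown because Gata3 had the largest difference of the 9 regulators (RefSeq, GRCm38.p6, chr2:9878601-9878850, minus strand, printed 5′ to 3′).
Gata3 upstream: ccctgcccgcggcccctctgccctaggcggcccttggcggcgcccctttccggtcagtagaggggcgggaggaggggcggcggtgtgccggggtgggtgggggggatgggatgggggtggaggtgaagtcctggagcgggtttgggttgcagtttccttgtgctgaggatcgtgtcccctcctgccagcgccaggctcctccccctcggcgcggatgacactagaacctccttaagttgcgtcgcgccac
This stretch had 70% G and C and 19 CpG pairs. Its start site lay 9353 bases inside the annotated span of the gene (chr2:9857078-9887953), so transcripts that begin farther upstream have another promoter, which was not searched. Windows from 250 bases before to 50 after a start were at hand for 8 of the 9 regulators, all but Bhlhe40, whose promoter was not searched. These were 10 windows in all, since Runx3 and Gfi1 had more than 1 start. They were searched on both strands for the GATA motif AGATAA. The E-box CACGTG, which Bhlhe40 and Bhlhe41 bind, and the Nfil3 D-boxes TTACGTAA and TTATGTAA were searched in the same way, as was the palindromic STAT6 motif with 4 free bases between its arms. The GATA, STAT6 and both D-box motifs were in 0 of the 10 windows, and in 11.2%, 6.95%, 0.119% and 0.938% of the table's 32851 windows. CACGTG was in 1 of the 10, that of Bhlhe41, and in 7.15% of all windows.

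Zfpm1 encodes FOG-1, a cofactor that binds GATA proteins and restrains GATA3 in T cells. Its log2 signals were 9.01, 9.08 and 8.89 in PBS and 9.26, 9.35 and 9.23 in HDM. The groups did not overlap and the 3 numbered pairs differed by 0.24, 0.27 and 0.34, but the difference of 0.28 ± 0.09 did not pass (95% interval 0.07 to 0.50, limma adjusted p = 0.152). It passed with the replicate block (adjusted p = 0.046). Gata3 minus Zfpm1 within an array was 0.60, 0.44 and 0.51 in PBS and 1.44, 1.31 and 1.03 in HDM. That balance differed by 0.74 with no overlap (exact permutation p = 0.1, adjusted p = 0.125 over 5 balances).

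Stat6, the transducer of the interleukin 4 signal, had log2 signals of 11.09, 10.99 and 11.11 in PBS and 11.10, 11.10 and 11.00 in HDM. The groups overlapped fully, and Stat6 varied least of the 9, with an SD of 0.07 in PBS and 0.05 in HDM. The limma 95% interval of the difference ran from −0.17 to 0.17, or 0.891-fold to 1.13-fold (adjusted p = 0.989). The arrays measure transcript and not the phosphorylated protein.

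Gfi1, a zinc finger repressor that supports the expansion of Th2 cells, had log2 signals of 8.41, 8.84 and 8.30 in PBS and 9.19, 9.24 and 8.54 in HDM. HDM replicates 1 and 2 were above every PBS array, and HDM replicate 3 was below PBS replicate 2. The difference of 0.47 ± 0.21 did not pass (95% interval −0.02 to 0.97, limma adjusted p = 0.302). It passed with the replicate block (adjusted p = 0.0375), without HDM replicate 3 (0.70, adjusted p = 0.0463) and when the arrays numbered 3 were both dropped (0.59, adjusted p = 0.0327). Without any other 1 array Gfi1 did not pass (limma adjusted p reaching 0.612).

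Bhlhe40 (DEC1), a repressor that shapes cytokine production by T helper cells, had log2 signals of 11.33, 11.45 and 11.59 in PBS and 12.04, 11.96 and 12.25 in HDM. The groups did not overlap, with 0.38 between their nearest values. The difference was 0.63 ± 0.10 (95% interval 0.40 to 0.86, limma adjusted p = 0.0155). The call was lost without PBS replicate 1 (adjusted p = 0.0632), PBS replicate 2 (0.0851) or HDM replicate 1 (0.0666), with differences of 0.57, 0.63 and 0.65.

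Bhlhe41 (DEC2), the close relative of Bhlhe40, lay in the other direction. Its log2 signals were 5.99, 6.11 and 6.76 in PBS and 5.71, 5.60 and 5.96 in HDM, and the highest HDM value was 0.04 below the lowest PBS value. The difference of −0.53 ± 0.20 did not pass (95% interval −1.0 to −0.07, limma adjusted p = 0.211), and with the replicate block it did (adjusted p = 0.03). PBS replicate 3 stood highest, and without it the difference was −0.30 (adjusted p = 0.306). Its probe set was dim, with a mean signal at the 31.4th percentile of all genes. Bhlhe40 minus Bhlhe41 within an array was 5.33, 5.34 and 4.83 in PBS and 6.33, 6.37 and 6.29 in HDM. This balance differed by 1.17 with no overlap between groups (exact permutation p = 0.1, adjusted p = 0.125 over 5 balances).

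The stretch before the Bhlhe41 start is shown because it held the 1 match among these windows, with the E-box in capitals (RefSeq, GRCm38.p6, chr6:145865421-145865670, minus strand, printed 5′ to 3′).
Bhlhe41 upstream: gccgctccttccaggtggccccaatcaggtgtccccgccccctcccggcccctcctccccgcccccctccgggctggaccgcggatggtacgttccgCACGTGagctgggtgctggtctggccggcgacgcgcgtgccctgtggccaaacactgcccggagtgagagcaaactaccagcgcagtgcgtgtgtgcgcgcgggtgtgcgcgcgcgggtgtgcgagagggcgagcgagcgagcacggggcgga
The E-box began 153 bases before the start, in a stretch with 73.6% G and C. A match of letters is a description and shows no binding.

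Nfil3, a repressor of the clock output that also regulates Th2 cytokine genes, had log2 signals of 8.71, 8.91 and 8.82 in PBS and 9.02, 9.18 and 9.75 in HDM. All HDM arrays were above the PBS arrays, and HDM replicate 3 stood highest, so that the numbered pairs differed by 0.30, 0.27 and 0.93. The difference of 0.50 ± 0.18 did not pass (95% interval 0.08 to 0.92, limma adjusted p = 0.193), nor with the replicate block (adjusted p = 0.0528). Without HDM replicate 3 it was 0.28, and without both arrays numbered 3 it was 0.29.

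Id2, which binds E proteins and keeps them off DNA, is a factor of effector T cells and innate lymphocytes. Its log2 signals were 12.11, 11.98 and 11.40 in PBS and 12.78, 12.70 and 12.25 in HDM. The groups did not overlap, the array numbered 3 was the lowest of each, and the pairs differed by 0.67, 0.72 and 0.85. The difference of 0.74 ± 0.20 did not pass (95% interval 0.28 to 1.21, limma adjusted p = 0.0932). It passed with the replicate block (SE 0.05, adjusted p = 0.000626), with array weights (0.71, adjusted p = 0.0324), without HDM replicate 3 (0.90, adjusted p = 0.0317) and when the arrays numbered 3 were both dropped (0.69, adjusted p = 0.000753). Without any other 1 array Id2 did not pass (limma adjusted p reaching 0.282). Its relative Id3 had a difference of −0.43 ± 0.10 (adjusted p = 0.058, 0.0221 with the block). Id2 minus Id3 within an array was 4.52, 4.23 and 3.70 in PBS and 5.61, 5.46 and 4.89 in HDM, a balance that differed by 1.17 (exact permutation p = 0.1, adjusted p = 0.125 over 5 balances).

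Runx3, a factor of Th1 and CD8 T cells that silences Il4, had log2 signals of 8.07, 8.08 and 8.49 in PBS and 8.32, 8.19 and 8.47 in HDM. The groups overlapped, and the limma 95% interval of the difference of 0.11 ± 0.14 ran from −0.21 to 0.44 (adjusted p = 0.76). Gata3 minus Runx3 was 1.55, 1.45 and 0.91 in PBS and 2.38, 2.47 and 1.79 in HDM. It differed by 0.91 with no overlap (exact permutation p = 0.1, adjusted p = 0.125 over 5 balances). Against Tbx21, the master factor of Th1 cells, Gata3 gave 0.64, 0.47 and −0.36 in PBS and 1.51, 1.87 and 0.34 in HDM, and HDM replicate 3 fell among the PBS values. The arrays numbered 3 were the lowest of both groups, and the numbered pairs differed by 0.86, 1.41 and 0.71, each higher in HDM. The difference of 0.99 had an exact permutation p of 0.3 in a test that leaves the pairing out, and Tbx21 alone differed by 0.03 ± 0.31 (limma adjusted p = 0.974).

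**Figure D3:**
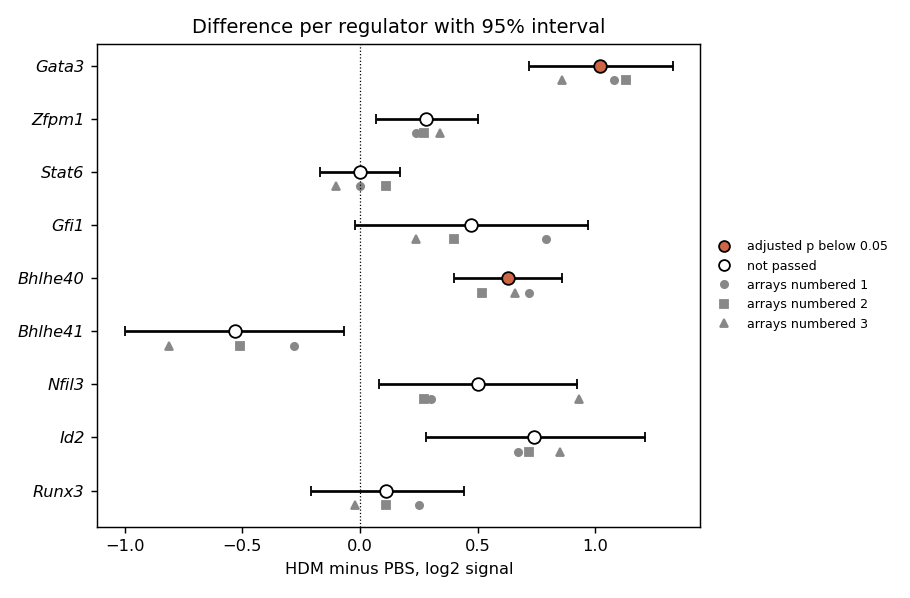
HDM minus PBS difference in log2 signal (horizontal axis) of each regulator with its limma 95% interval, filled where the adjusted p was below 0.05, and small gray markers for the differences between same-numbered arrays. Gata3 and Bhlhe40 are filled, at 1.02 and 0.63, and Bhlhe41 is at −0.53.

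By rank alone, whatever the distance to the next array, the arrays numbered 3 were at the same end of both groups for most regulators. They were the lowest of their group in both groups for 4 of the 9 (Gata3, Zfpm1, Gfi1 and Id2) and the highest in both for 3 (Bhlhe40, Bhlhe41 and Runx3). Among all genes they were lowest in both groups for 22.7% and highest in both for 19.1%.

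Gene profiles most like that of Gata3 were sought by the root mean square difference over the 6 arrays between log2 signals, each centred on its own mean. The 5 nearest were Cd101, an inhibitory surface receptor, at 0.0408, Rgs1, a regulator of G protein signalling, at 0.0618, Ubash3b, a tyrosine phosphatase, at 0.0681, Ptpn7, another phosphatase, at 0.0719, and Abi2, an adaptor of Abl kinases, at 0.0743. The median over all genes was 0.55, and Gata3 itself varied by 0.535 around its mean. Cd101 had log2 signals of 8.35, 8.35 and 8.18 in PBS and 9.54, 9.40 and 9.06 in HDM, the same order of arrays as Gata3 apart from a tie in PBS. Among the other regulators Id2 was the nearest, at 0.212 and rank 168 of all genes, followed by Bhlhe40 at 0.327 and Gfi1 at 0.33. The distance includes the difference between groups, so it describes these 6 arrays only.

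Around the regulators, 91 genes of 7 lists were measured, and 21 rose, 8 fell and 62 did not pass by limma. Among all genes 2.39% were called higher and 1.56% lower. The replicate block raised the counts in the lists to 31 and 13, where 5.95% and 6.01% of all genes were called. The count of lowered genes was 2 without PBS replicate 1, PBS replicate 2 or HDM replicate 1, 3 without HDM replicate 2 and 13 without HDM replicate 3. In these fits 0.293%, 0.185%, 0.316%, 0.248% and 3.26% of all genes were called lower. It was 15 without both arrays numbered 3, 5 over all probe sets and 2 at an adjusted p below 0.01, where 5.98% of genes, 0.701% of probe sets and 0.248% of genes were called lower.

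Of 16 genes of the signals upstream of Gata3, 4 rose, 2 fell and 10 did not pass, with a median log2 difference of 0.23. Rbpj, the DNA-binding partner of Notch, rose most, from 9.52, 9.90 and 9.56 in PBS to 11.60, 11.59 and 11.31 in HDM (1.84 ± 0.13, limma adjusted p = 0.0011), while the Notch receptor genes Notch1 and Notch2 differed by 0.14 and 0.37 and did not pass, and Notch2 was called higher with the replicate block (adjusted p = 0.0453). Il4ra, the receptor chain that recruits STAT6, fell from 11.85, 11.96 and 12.02 to 10.99, 10.96 and 11.59 (−0.77 ± 0.16, adjusted p = 0.0421), as its ligand gene Il4 rose by 1.62 ± 0.35 (adjusted p = 0.0489). Neither passed in any fit that dropped 1 array, except the fit that dropped HDM replicate 3 (adjusted p reaching 0.172 and 0.179). In the interleukin 2 arm, Il2ra (1.16 ± 0.10) and Cish, a feedback inhibitor induced by STAT5 (1.15 ± 0.09, adjusted p = 0.00135), rose. Stat5a (−0.65 ± 0.20, adjusted p = 0.126) and Stat5b (−0.55 ± 0.22, adjusted p = 0.23) did not pass, but both were lower with the replicate block (adjusted p = 0.00329 and 0.00484). The block also called higher Il2rb, a receptor chain of interleukin 2 (0.42, adjusted p = 0.00667), and the kinase gene Tyk2 (0.38, adjusted p = 0.015), which made 7 higher and 4 lower in this list. Jak1 fell by 0.29 (SE 0.06, adjusted p = 0.0299) and did not pass once an array numbered 1 or 2 of either group was dropped (adjusted p reaching 0.14).

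Of 20 factors that act with Gata3 or on the same loci, 4 rose and 1 fell, with a median of 0.12. Pparg, a nuclear receptor of Th2 effector cells (2.53 ± 0.28, limma adjusted p = 0.00435), Maf, an activator of Il4 and Il10 (1.57 ± 0.08, adjusted p = 0.000281), and Irf4, a factor of activated T cells (1.01 ± 0.18, adjusted p = 0.0227), rose, as did Nfatc2 (0.48 ± 0.09, adjusted p = 0.0324). Satb1, a chromatin organiser, fell by 0.89 (SE 0.12, adjusted p = 0.0102). With 1 array dropped, Irf4 did not pass without PBS replicate 1, PBS replicate 3 or HDM replicate 2 (adjusted p reaching 0.105), Satb1 without PBS replicate 1, PBS replicate 2 or HDM replicate 1 (reaching 0.0546), and Nfatc2 passed without HDM replicate 3 only (reaching 0.155). With the replicate block 8 rose and 2 fell: Zbtb7b (0.53, adjusted p = 0.00786), Nfatc1 (0.37, adjusted p = 0.00908), Prdm1 (0.65, adjusted p = 0.022) and Batf (0.32, adjusted p = 0.0431) were added above, and Myb (−0.91, adjusted p = 0.00143) below. The chromatin factors Chd4, Mbd2, Kmt2a and Men1 differed by between −0.07 and 0.14 and did not pass.

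Of 10 measured genes that GATA3 is known to bind or support, 7 rose, 0 fell and 3 (Il9, Il24 and Csf2) did not pass. The same numbers were called with the replicate block. Among all genes 2.39% were called higher and 1.56% lower by limma, and 5.95% and 6.01% with the block. The list was chosen with earlier results of these data known, so its count is no independent support. The list's median log2 difference was 2.18, led by Il13 (3.35 ± 0.32, limma adjusted p = 0.00274), Il10 (3.27 ± 0.15, adjusted p = 0.000178), Ccr8 (2.25 ± 0.27) and Il17rb (2.20 ± 0.43, adjusted p = 0.0335). With 1 array dropped, Il17rb passed without HDM replicate 3 only (adjusted p reaching 0.139). Il9 and Csf2 had mean signals below the 25th percentile of all genes.

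**Figure D4:**
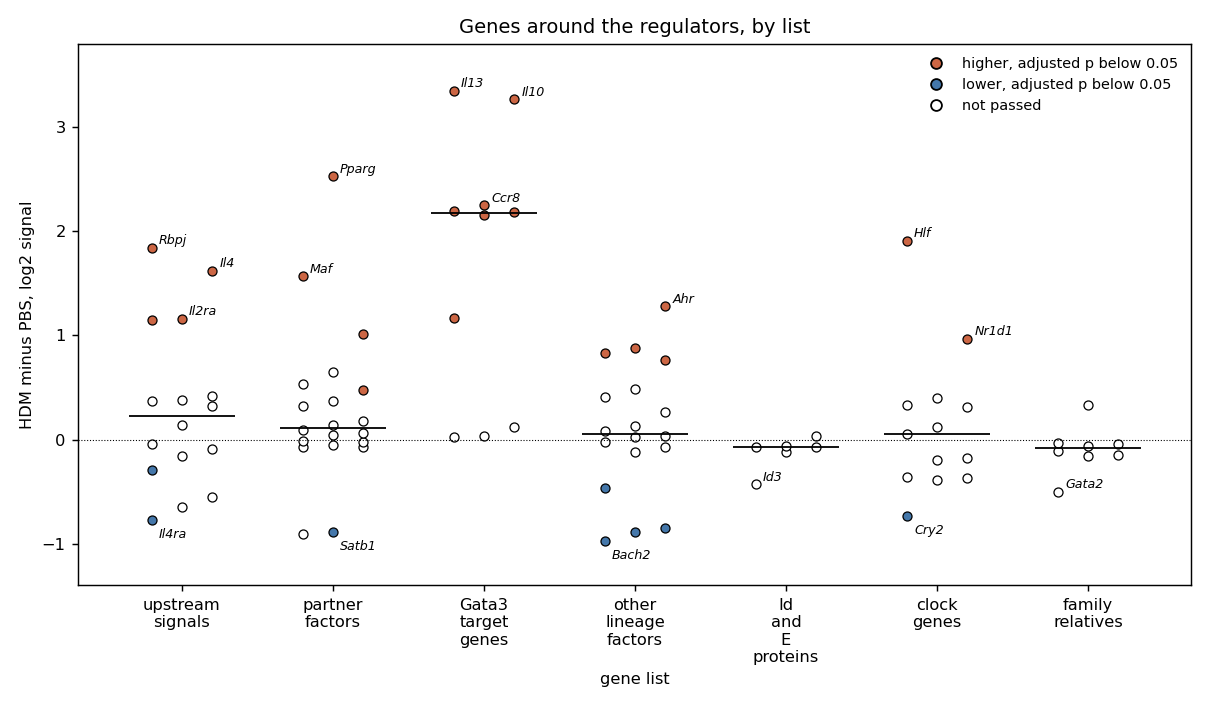
HDM minus PBS difference in log2 signal (vertical axis) of each gene in the 7 lists (horizontal axis), filled orange or blue where limma called it higher or lower, with lines at list medians. The target genes have a median of 2.18, and the medians of the other lists lie between −0.08 and 0.23.

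Of 18 factors of other T cell lineages, 4 rose and 4 fell. Ahr (1.28 ± 0.11), Tox2 (0.88 ± 0.13), Foxp3 (0.83 ± 0.11, limma adjusted p = 0.00851) and Ikzf2 (0.76 ± 0.14), factors of Th17, follicular helper and regulatory T cells, rose. Bach2, Klf2, Lef1 and Foxo1, which naive T cells express, fell by 0.97, 0.89, 0.85 and 0.47. The Runx partners Runx1 (0.08) and Cbfb (0.13) did not pass, nor did Eomes (−0.02) and Stat4 (−0.12). With the replicate block 6 rose and 4 fell, Rora (0.41, adjusted p = 0.0138) and Bcl6 (0.49, adjusted p = 0.042) being the added genes. With 1 array dropped, Tox2 did not pass without PBS or HDM replicate 2 (adjusted p reaching 0.0669), and Ikzf2 passed without HDM replicate 3 only (reaching 0.101). Klf2 and Foxo1 did not pass once an array numbered 1 or 2 of either group was dropped (reaching 0.117 and 0.0951).

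Of 6 genes of the Id and E protein families besides Id2, 0 passed by limma, and 1, Id3, had an unadjusted p below 0.05. The E proteins that Id2 binds, Tcf3, Tcf4 and Tcf12, differed by 0.03, −0.07 and −0.12. Of 8 relatives of the regulators, 0 passed by limma, with a median of −0.08, and 1, Stat2, was called with the replicate block (0.33, adjusted p = 0.197, 0.0335 with the block). Gata2, the GATA factor of mast cells and basophils, had a difference of −0.50 ± 0.31.

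Of 13 clock genes, 2 rose and 1 fell. Hlf, a leucine zipper factor that binds the same D-box sites as Nfil3, rose from 8.0, 8.18 and 7.96 in PBS to 10.49, 9.92 and 9.46 in HDM (1.91 ± 0.23, limma adjusted p = 0.00615), and the related Dbp and Tef differed by 0.05 and −0.20. Nr1d1, the REV-ERBα repressor of Nfil3, rose by 0.97 (SE 0.14, adjusted p = 0.012) but did not pass without PBS or HDM replicate 2 (adjusted p reaching 0.056). Cry2 fell by 0.73 (SE 0.16, adjusted p = 0.0486) and, with 1 array dropped, passed without HDM replicate 3 only (adjusted p reaching 0.205). Arntl and Clock, the activating pair, differed by 0.31 and 0.12 and did not pass. Cry1 was called lower with the replicate block only (−0.36, adjusted p = 0.0281).

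The gate and other cell types were checked with marker lists. Of 7 CD4 T cell genes 0 passed by limma, with Cd4 at 0.15 ± 0.07 and Ptprc at −0.07 ± 0.07, and 1, Cd3g, was called with the replicate block (0.19, adjusted p = 0.0308). Of 10 macrophage genes, which such cells express beside Bhlhe40, Bhlhe41 and Id2, 1 rose, Chil3 (2.11 ± 0.38, adjusted p = 0.0248), and 9 did not pass. The summed signal of the list was 11.95 to 12.16 in PBS and 12.68 to 12.98 in HDM on the log2 scale. Linear signals were summed, so Chil3, at 9.63, 9.39 and 8.42 in PBS and 11.61, 11.63 and 10.52 in HDM, weighed heavily. The sum without Chil3 was not computed. Of the 10 genes only 1, Chil3, had all its HDM values above all its PBS values, so the separation of the sums is not shared across the list. Itgam and Adgre1 differed by −0.02 and 0.39 and did not pass, and Csf1r, the receptor of a macrophage growth factor, was called higher with the replicate block only (0.52, adjusted p = 0.0488). Of 6 dendritic cell genes 1 rose, Itgax (1.06 ± 0.22), with a sum of 10.80 to 10.97 in PBS and 11.03 to 11.14 in HDM. Of 7 NK and CD8 T cell genes, from cells that use Id2, Nfil3 and Runx3, 3 fell, Gzma, Klrd1 and Prf1 (by 1.63, 1.21 and 0.82). The other 4, Cd8a (0.06), Cd8b1 (0.01), Ncr1 (−0.13) and Klrb1c (−0.12), did not pass. The sum of this list was 11.13 to 11.34 in PBS and 10.39 to 11.04 in HDM. Of 8 mast cell, basophil and eosinophil genes 0 passed by limma, and 1, Hdc, which makes histamine, was called higher with the replicate block (0.56, adjusted p = 0.0233). In that list Mcpt8, Fcer1a, Ms4a2, Cpa3 and Epx had mean signals below the 25th percentile of all genes. Of 5 B cell genes 0 passed, with sums of 9.45 to 10.09 and 9.27 to 10.79, and of 7 genes of epithelium, endothelium and fibroblasts 1 fell, Pecam1 (by 0.51). With the replicate block the endothelial cadherin gene Cdh5 (−0.90, adjusted p = 0.00979) and the surfactant gene Sftpc (−0.40, adjusted p = 0.0177) were lower too. Some markers of other cells were bright in both groups. The epithelial gene Scgb1a1 had means of 11.64 in PBS and 11.84 in HDM, at the 98.9th percentile of all genes. Sftpc lay at the 92.6th percentile and the macrophage gene Lyz2 at the 96.7th, while the epithelial gene Epcam lay at the 26.8th. With 1 array dropped, Klrd1 and Prf1 passed without HDM replicate 3 only (adjusted p reaching 0.128 and 0.133), Chil3 and Pecam1 without either array numbered 3 (reaching 0.11 and 0.0961), and Itgax without HDM replicate 1 or 3 (reaching 0.132). The part of these other cells in the differences of the regulators was not tested.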

How the data were processed

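The authors deposited log2 signals per probe set made with RMA (background correction, quantile normalization and summary), per the submitters' processing notes, which name no version. Because RMA equalises the distributions of arrays, a shift in the RNA content of the cells would not show. Array medians lay between 6.57 and 6.64. Probe sets were named through the platform annotation: of 33960, 23521 had exactly 1 symbol, 1814 several and 8625 none. The brightest probe set by mean over the 6 arrays stood for each of 22180 genes, with no filter, and 16 listed genes were not analysed here. Any pair of arrays shared at most 5 identical values.

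HDM minus PBS was tested two-sided in R 4.3.3 with limma 3.58.1 (lmFit, eBayes with intensity trend) and Benjamini-Hochberg adjustment over all genes at 0.05. Signals of 2 genes within an array were compared by exact permutation of 3 against 3 arrays. Lists were described by counts, medians and, for markers, the log2 of summed linear signals. In 5 runs of simulated data for HDM against PBS (22180 genes, 200 changed) the test found 30.8% of the genes shifted by 0.5 on the log2 scale, 82% of those shifted by 1 and 97.6% of those shifted by 2. On average 5.24% of the calls were false. The simulated noise was independent between genes and arrays, unlike that of the real arrays, so these rates may not hold for them.

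The numbers 1 to 3 were treated as pairs because, after subtracting each group's mean, the PBS and HDM arrays of a number correlated over genes at 0.43, 0.17 and 0.53, above a minimum of 0.1. HDM replicate 2 correlated more with PBS replicate 1 (0.25) than with PBS replicate 2 (0.17), so the pairing of number 2 is uncertain. The pairing rests on the data, since the labels do not explain the numbers, and results fitted with the block stand beside those whose call it changed. The named genes were the regulators and up to 4 passing genes per list with the largest difference (the 2 largest where none passed). Cd4, Ptprc, Itgam, Adgre1, Tbx21 and Id3 were always named, as were the 5 profiles nearest Gata3 after the exclusions by gene name. Further genes in the text were added once values were known. The regulators, lists and tests were chosen with earlier results of these data known. Promoter sequences came from RefSeq (GRCm38.p6). The number of arrays limits the precision.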

Additional observations from a re-analysis of the deposited data

How the results depend on the processing

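Gata3, read by its brighter probe set or the mean of both, kept its direction and its call under every alternative run. The differences ran from 0.67 (mean of its probe sets) to 1.16 (without HDM replicate 3), with limma adjusted p up to 0.0488. Its dimmer probe set alone did not pass (0.31, limma adjusted p = 0.254 over all probe sets, 0.176 with the replicate block). The count of 2 raised regulators, beside 2.39% of all genes called higher, became 5 with the replicate block (5.95% of all genes). It was 4 without both arrays numbered 3 (5.64%) and 1 at an adjusted p below 0.01 (0.775%). Without 1 array it was 1 to 4, such as 1 without PBS replicate 2 (0.798%) and 4 without HDM replicate 3 (3.81%). The count of 0 lowered regulators, beside 1.56% of all genes called lower, became 1, Bhlhe41, with the replicate block (6.01% of all genes). Over genes the block changed no other call among the regulators than those of Id2, Zfpm1, Gfi1 and Bhlhe41. The count of 8 lowered pathway genes became 5 over all probe sets (0.701% of probe sets called lower) and 13 with the replicate block (6.01% of genes). It was 15 without both arrays numbered 3 (5.98%) and 2 at an adjusted p below 0.01 (0.248%). Without 1 array it was 2 to 13, such as 2 without PBS replicate 2 (0.185%) and 13 without HDM replicate 3 (3.26%). Over all probe sets with the replicate block, chosen after seeing the data, 3 regulators were raised and 0 lowered, and 26 pathway genes were raised and 12 lowered. That fit called 3.42% of probe sets higher and 3.02% lower. The difference of Stat6 changed sign without 1 array, between −0.03 and 0.03. Array weights, the dim-gene filters, repeated normalization, centring and other variance models left both regulator counts within 1 of the main ones. The filter that kept genes above the median left out Bhlhe41, which therefore could not be called lower there. All 5 balances kept their direction, though centring could not change them, since it shifts all genes of an array equally. The cause of these shifts was not tested. A stricter threshold leaves fewer calls by construction.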
